A study of Mus musculus with 2 samples.

Results

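Macrophages are among the few blood-derived cells that settle in embryonic organs before birth, and in the developing urinary tract they sit in the mesenchyme around the epithelial tubes, where they take up dying cells. They depend on the growth factor receptor CSF1R and on the transcription factor PU.1, encoded by Spi1, and they carry a recognisable set of transcripts for complement C1q, Fc receptors, scavenger receptors and lysosomal enzymes. A set of 34 such genes, with general leukocyte genes such as Ptprc (CD45), was followed in ureters of mouse embryos at E14.5, a mid-gestation stage. Members were taken by gene name or older alias among the non-control probes of both arrays. All 34 were on the arrays, with 40 probes between them, and Spi1 was listed under its older name Sfpi1. A probe was measured where its signal was well above background in both RNAs of a genotype label, and 32 members had such a probe, among 21977 genes tested in all. The members left out were Cd163, the haemoglobin scavenger receptor, and Timd4, a receptor for dying cells, whose probes were not well above background in any of the 4 RNAs. Members that pass because they are bright in either genotype are not all members, and the counts below cover the 32.

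RNA from mutant ureters of genotype Tbx18(cre/+);Bmp4(fl/fl), called Bmp4cKO, was set against RNA from control ureters of genotype Tbx18(+/+);Bmp4(fl/?), all on the NMRI background. Cre is driven from the Tbx18 locus, so that Bmp4 is removed in cells with Tbx18 activity, the ureteric mesenchyme among them. Controls lack cre. Each of 2 two-colour arrays carried 1 RNA of each label, with the dyes exchanged between the arrays. Replicate 1 is labelled female and replicate 2 male. No source used here states how many embryos went into an RNA, so p-values measure only the spread between these samples, which may be technical. With 2 arrays, their number limits the precision. Depending on the channel, 69.3% to 74.6% of the probe spots exceeded background clearly, and none was saturated.

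The label check went against the dye labels. Bmp4, the deleted gene, gave a stronger signal in the RNA labelled Bmp4cKO, with log2 ratios of 3.04 on replicate 1 and 3.71 on replicate 2 (limma adjusted p = 0.016). This rests on 1 probe, as another Bmp4 probe was not well above background in any of the 4 RNAs. Tbx18, whose locus carries cre, was also higher, at 0.97 ± 0.17 (SD, n = 2 arrays; limma adjusted p = 0.040). Both calls were lost with median centring in place of loess, a setting that called no gene at all. The labels do not say whether the Bmp4 probe read here, at chr14:47003391-47003450 in mm9, lies in the deleted part. A probe outside it would not read the deletion itself, and whether the probe's place accounts for these ratios was not tested. Every ratio below is a log2 value with the Bmp4cKO label over the control label, so a value above 0 goes in the direction of the Bmp4 probe, and all signs turn if the dye labels are exchanged. The columns of the authors' deposited table belong to samples titled Bmp4cKO vs control. That table has the opposite sign for Bmp4 and for every measured member in the mean of the 2 arrays. On replicate 1 alone, Laptm5 and Hcls1 have the same sign in it as here. On replicate 2 the sex-linked probes also differed between the channels: Ddx3y, a Y-linked gene, had a processed signal of 2720 in the RNA labelled control and of 6.25, which is background, in the RNA labelled Bmp4cKO, although both are labelled male. A probe of Xist, the RNA of the inactive X chromosome, read 4.31 and 1464 there, the former at background. The labels of replicate 2 thus match its sex-linked probes for the RNA labelled control only, and values are given for each array so that replicate 1 can be read alone. In the ratios of replicate 2, and in any mean that includes it, genotype label and sex cannot be told apart. Because an RNA is a bulk extract, fewer cells of a type and less RNA per cell cannot be told apart in any value below.

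The cells' defining transcripts were present in all 4 RNAs. C1qa, Csf1r and Ptprc were each well above background in every channel, as were 31 of the 32 measured members. The exception was Fcgr1, which reached that level in only 1 of the RNAs labelled control. The probes behind the largest negative value and behind C1qa and C1qb are shown because their direction sets them apart from most members. They are the array's own 60-base probes, written 5′ to 3′ as in the array files, with mm9 positions. The Ptprc probe, on the minus strand at chr1:139961083-139961142, has an open frame that runs to the stop codon in capitals at its end.
Ptprc: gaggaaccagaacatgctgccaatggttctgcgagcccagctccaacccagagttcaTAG
C1qa, minus strand at chr4:136452409-136452468: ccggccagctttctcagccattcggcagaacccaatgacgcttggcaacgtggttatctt
C1qb, minus strand at chr4:136436578-136436637: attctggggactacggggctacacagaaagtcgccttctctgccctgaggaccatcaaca

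The macrophage and leukocyte genes did not share a direction. None of the 32 passed the test over all genes (limma, Benjamini-Hochberg adjusted p under 0.05), against 1.91% of all genes called in either direction, 0.887% higher and 1.02% lower. At an unadjusted p under 0.05, 7 members were higher and 1 was lower, where all genes gave 7.15% and 7.37%. Fcgr1, which passed the filter only through the RNAs labelled Bmp4cKO, is among the 7 and in the counts of higher members below. The members' median log2 ratio was 0.14, with 0.14 on replicate 1 and 0.23 on replicate 2, while the median over all genes was -0.01. Of the 7 groups by role, 6 had a median above 0 and C1q had -0.12. The count was 5 with the mean over passing probes and 5 without replicate 1, where the median of the lineage receptors and regulator was -0.027 and -0.13 against 0.09. By direction alone, 17 of 32 members (53.1%) were higher on both arrays, beside 28.2% of all genes. On both arrays 5 members (15.6%) were lower, beside 30.6% of all genes. The other 10 had opposite signs on the 2 arrays. In 15 members both RNAs labelled Bmp4cKO had a higher normalized intensity than both labelled control, beside 18.8% of all genes, and in 1, Ptprc, both had a lower one, beside 19.6%, each gene by its brightest probe. The ratios of the members spanned -0.80 to 0.70. Between the 2 arrays, Pearson's r was 0.60 and Spearman's rho 0.43 over the 32 members' ratios, where all genes gave 0.48 and 0.31. These are descriptions across genes of the same 4 RNAs.

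**Figure D1:**
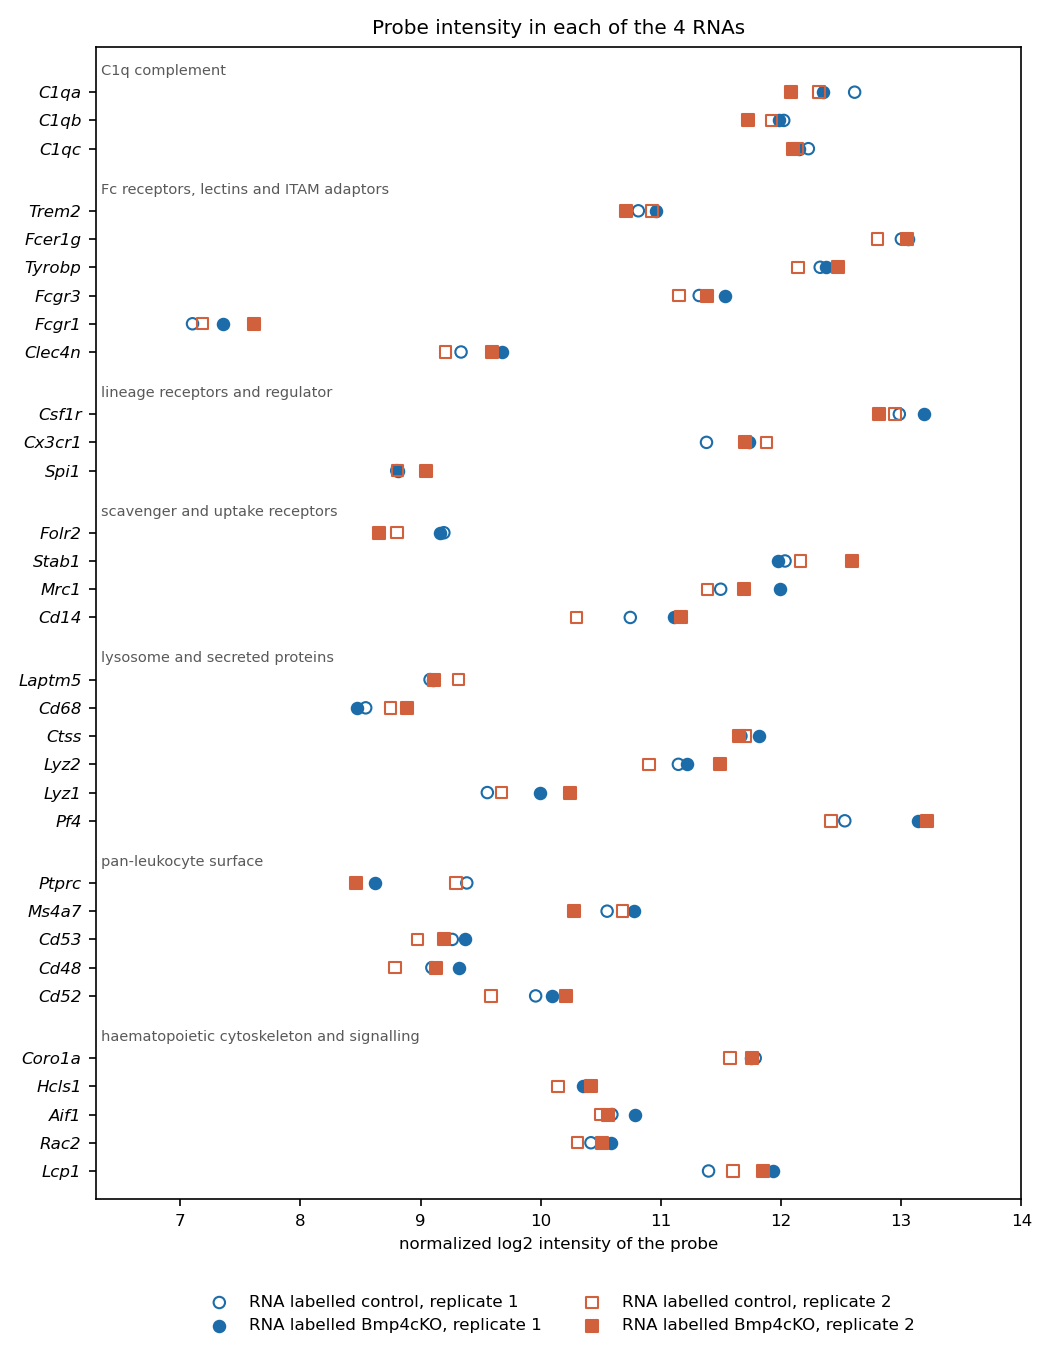
Normalized log2 intensity (x axis) of the probe used for each of the 32 measured genes (rows, grouped by role) in the 4 RNAs; open symbols are RNAs labelled control, filled symbols RNAs labelled Bmp4cKO, circles replicate 1 and squares replicate 2. Both filled symbols lie left of both open ones for Ptprc alone, and right of both for 15 genes such as Pf4 and Lyz1; intensities of different probes are not comparable.

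Complement C1q is the recognition protein of the classical complement pathway, built from the products of C1qa, C1qb and C1qc, and tissue macrophages are its main source. Their probes lie within 15891 bases of each other on chromosome 4. On both arrays all 3 genes had slightly lower signals under the Bmp4cKO label, opposite to the Bmp4 probe, and none passed the test. C1qa had normalized log2 intensities of 12.61 (control) and 12.35 (Bmp4cKO) on replicate 1, and of 12.32 and 12.09 on replicate 2. Its higher RNA on each array was the one labelled control, although the Bmp4cKO value of replicate 1 exceeded the control value of replicate 2. The log2 ratio was -0.25 ± 0.02 (SD, n = 2 arrays; limma adjusted p = 0.44). C1qb had -0.04 on replicate 1 and -0.19 on replicate 2, and C1qc had -0.08 and -0.04. Like C1qa, neither separated the labels over all 4 RNAs.

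Fc receptors bind antibody, and together with the lectin and lipid receptors of myeloid cells they signal through 2 small adaptors, encoded by Fcer1g and Tyrobp. Of the 6 genes, 5 were higher on both arrays, the direction of the Bmp4 probe, with a group median of 0.21, and none passed the test. Fcgr1, which passed the filter only through the RNAs labelled Bmp4cKO, is among the 5. With probes required well above background in all 4 RNAs, the group median was 0.19. Clec4n, which encodes the fungal receptor Dectin-2, had intensities of 9.34 and 9.68 on replicate 1 (control, then Bmp4cKO) and of 9.21 and 9.59 on replicate 2. The RNAs of the 2 labels did not overlap, and the log2 ratio was 0.36 ± 0.03 (SD, n = 2 arrays; limma adjusted p = 0.25). Fcgr1, the high-affinity IgG receptor, was at 0.34 ± 0.13 from a probe near background and at 0.70 with processed signals (limma adjusted p = 0.038), and Fcgr3, the low-affinity IgG receptor, at 0.22 ± 0.01. The adaptors Tyrobp and Fcer1g were at 0.19 ± 0.20 and 0.15 ± 0.13. Trem2, a lipid receptor that signals through the Tyrobp product, had 0.15 on replicate 1 and -0.22 on replicate 2, so its direction was not the same on the arrays. Fcgr3 belongs to a family with close copies, which a probe may not tell apart.

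The receptors and the regulator that define the lineage had small ratios. Csf1r was read by 3 probes, all well above background in all 4 RNAs, and they did not give the same value. The brightest, which is also the one nearest the 3′ end, had 0.21 on replicate 1 and -0.13 on replicate 2, and a probe 1026 bases upstream of it had -0.19 and 0.13. The third probe, 12064 bases upstream along the gene, had -0.70 and -0.67. Its mean of -0.68 did not pass when every passing probe was tested (limma adjusted p = 0.067), a fit chosen after the values were seen. With the mean of the 3 probes Csf1r was at -0.23, against 0.04 from the brightest. Whether the upstream probe reads the same transcript forms as the others was not tested. Cx3cr1, the receptor for fractalkine, also split by probe: its brighter probe had 0.35 and -0.18 on the arrays and the other, 1207 bases upstream, -0.22 and -0.06. Spi1 had intensities of 8.80 and 8.82 on replicate 1 and 8.81 and 9.04 on replicate 2, and its log2 ratio averaged 0.12 ± 0.15 (SD, n = 2 arrays), with an adjusted p of 0.78 from limma. The Spi1 probe maps to a stretch of 13788 bases and so spans an intron.

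**Figure D2:**
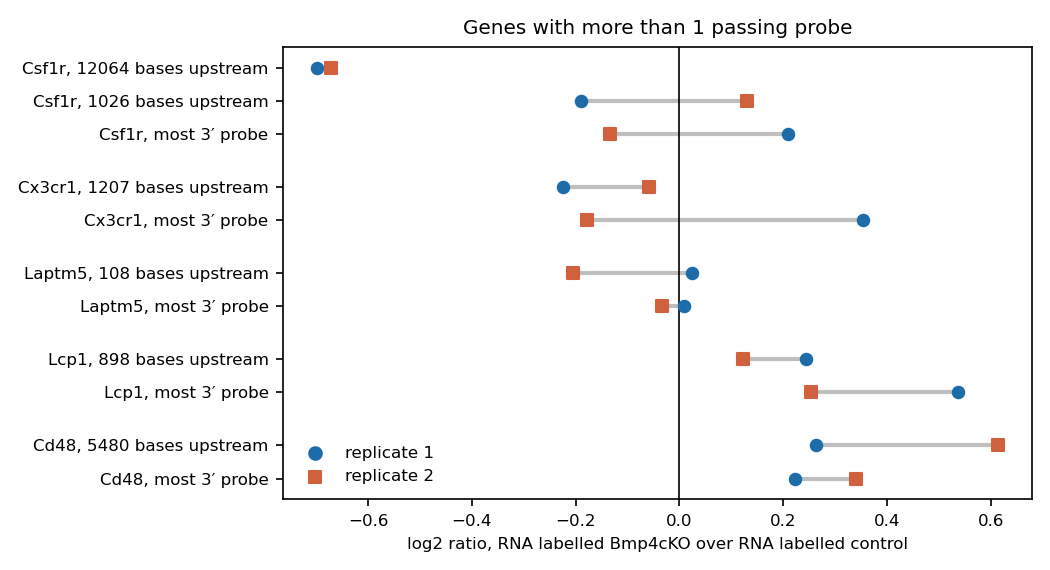
Log2 ratio, Bmp4cKO label over control label (x axis), for each passing probe of the 5 genes with more than 1, ordered by distance along the gene from the probe nearest the 3′ end (circles replicate 1, squares replicate 2, bars join the arrays). The upstream Csf1r probe lies at -0.70 and -0.67 while the other Csf1r probes straddle 0, and both probes of Lcp1 and Cd48 lie above 0.

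Scavenger and uptake receptors clear lipoproteins, sugars and dying cells, and 2 of the 4 measured were higher on both arrays. Cd14, the coreceptor for bacterial lipopolysaccharide, had intensities of 10.75 and 11.11 on replicate 1 (control, then Bmp4cKO) and of 10.30 and 11.17 on replicate 2. Both RNAs labelled Bmp4cKO were above both controls, and the log2 ratio was 0.62 ± 0.36 (SD, n = 2 arrays; limma adjusted p = 0.17). Mrc1, the mannose receptor of resident macrophages, had 11.50 and 11.99 on replicate 1 and 11.39 and 11.69 on replicate 2, a ratio of 0.40 ± 0.14 (limma adjusted p = 0.24). Stab1, a scavenger receptor shared with sinusoidal endothelium, had -0.06 on replicate 1 and 0.43 on replicate 2. Folr2, the folate receptor of resident macrophages, was the only measured gene of the 4 that was lower on both arrays, at -0.09 ± 0.08.

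Among lysosomal and secreted products, Pf4 gave the largest positive value of all members. Pf4 encodes platelet factor 4, a chemokine of megakaryocytes that fetal macrophages also make. Its intensities were 12.53 and 13.14 on replicate 1 (control, then Bmp4cKO) and 12.42 and 13.22 on replicate 2, so both RNAs labelled Bmp4cKO exceeded both controls. The log2 ratio was 0.70 ± 0.14 (SD, n = 2 arrays), which is 1.63-fold, with a limma adjusted p of 0.071. It passed under 2 alternatives, with processed signals (adjusted p = 0.037) and with an intensity trend (adjusted p = 0.011), and its adjusted p ranged from 0.011 to 0.45 over all of them. Pf4 was also the only member at least 1.5-fold higher on both arrays, beside 1.75% of all genes.

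The lysozyme genes Lyz1 and Lyz2, which encode bacterial cell wall enzymes, were higher on both arrays. Lyz1 was at 0.51 ± 0.09 (SD, n = 2 arrays; limma adjusted p = 0.14). Lyz2 was at 0.33 ± 0.37, with most of that on replicate 2 (0.07 and 0.59). They are neighbouring copies of similar sequence, and their probes may not tell them apart. Cd68, Ctss and Laptm5, which encode a macrophage lysosomal glycoprotein, cathepsin S and a lysosomal membrane protein, had means of 0.03, 0.05 and -0.09, each with opposite signs on the arrays. The group's median was 0.19, with 0.11 on replicate 1 and 0.36 on replicate 2.

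Ptprc had the largest negative value. It encodes CD45, the tyrosine phosphatase on the surface of nearly all nucleated blood-derived cells. Its intensities were 9.38 (control) and 8.62 (Bmp4cKO) on replicate 1, and 9.30 and 8.47 on replicate 2. Both RNAs labelled Bmp4cKO lay below both controls. The log2 ratio was -0.80 ± 0.05 (SD, n = 2 arrays), which is 1.74-fold lower and opposite to the Bmp4 probe, with a limma adjusted p of 0.051. The value lay beside the threshold: 5 of 10 alternatives that kept the direction called it lower, and its adjusted p over all alternatives ranged from 0.013 to 0.33. By the brightest probe of each gene it was the only member at least 1.5-fold lower on both arrays, beside 2.03% of all genes. The upstream Csf1r probe, which that rule does not use, was also past 1.5-fold lower on both and below both controls. The Ptprc value rests on the single Ptprc probe printed above. The other general leukocyte surface genes had values of the opposite sign or of both signs. Cd52 was at 0.38 ± 0.35, Cd48 at 0.28 ± 0.08 with a further probe at 0.44, and Cd53 at 0.17 ± 0.08. Ms4a7, a membrane gene of resident macrophages, had 0.23 on replicate 1 and -0.40 on replicate 2, the widest gap between arrays among the members.

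The 5 genes of the haematopoietic cytoskeleton and of signalling to it all had means above 0, and 3 were higher on both arrays. Lcp1, which encodes the actin bundler L-plastin, had intensities of 11.40 and 11.93 on replicate 1 and of 11.60 and 11.85 on replicate 2. Its ratio was 0.40 ± 0.20 (SD, n = 2 arrays; limma adjusted p = 0.27), and its other probe gave 0.18. Rac2, a small GTPase of blood cells, was at 0.18 ± 0.03 and Aif1, which encodes the macrophage protein IBA1, at 0.13 ± 0.09. Hcls1 and Coro1a, which encode actin regulators, had means of 0.12 and 0.07 and opposite signs on the arrays.

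**Figure D3:**
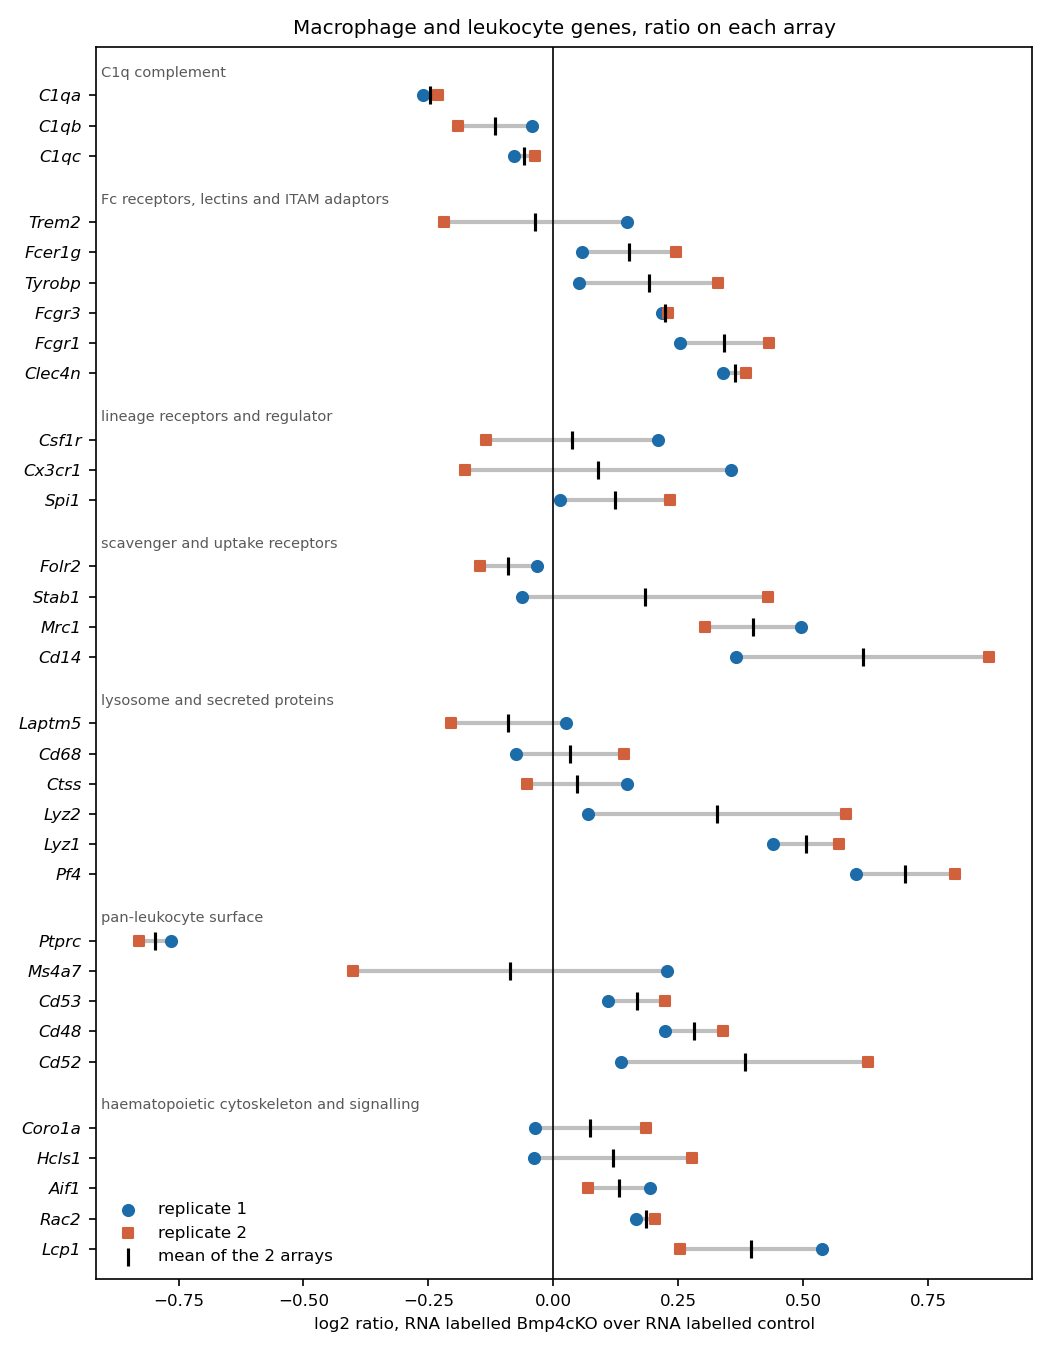
Log2 ratio, Bmp4cKO label over control label (x axis), for the 32 measured genes (rows, grouped by role); circles are replicate 1, squares replicate 2, ticks the mean of the 2 arrays. Ptprc at -0.80 and Pf4 at 0.70 are the extremes, the C1q genes lie left of 0 on both arrays, and 10 genes have bars that cross 0.

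**Figure D4:**
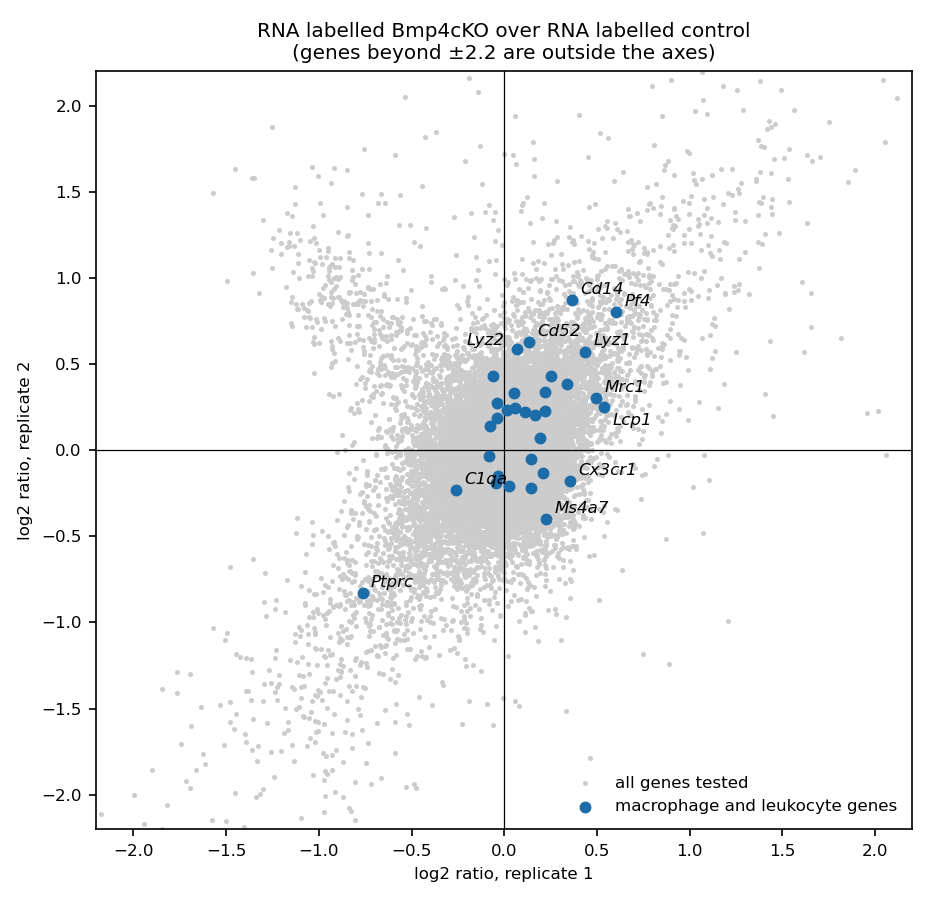
Log2 ratio on replicate 1 (x axis) against replicate 2 (y axis) for all genes tested (grey) and the 32 macrophage and leukocyte genes (blue), with genes beyond the axes not drawn. Most blue points lie inside the dense grey core, with Ptprc at the lower left and Pf4 and Cd14 at the upper right.

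Of a wider list of 58 myeloid genes, 50 were measured and none was called in either direction, beside 1.91% of all genes. At an unadjusted limma p under 0.05, 9 were higher and 0 lower, where all genes gave 7.15% and 7.37%. Their median was 0.06. On both arrays 22 of 50 (44.0%) were higher and 7 lower, beside 28.2% and 30.6% of all genes. Pirb, which passed the filter only through the RNAs labelled Bmp4cKO, is among the 9 and the 22. The largest values were those of Cebpa, a myeloid transcription factor that other tissues also use, at 0.53 and 0.89 on the arrays, and of Csf2rb, a cytokine receptor subunit, at 0.44 and 0.46. Adgre1, a surface antigen widely used to mark mouse macrophages, had 0.32 and -0.46. The summed processed signal of the 50 had opposite orders on the arrays, with 96990 (control) and 111408 (Bmp4cKO) on replicate 1 and 125519 and 100220 on replicate 2. Most of that gap was Csf3r, a granulocyte growth factor receptor, with 32932 and 46227 on replicate 1 and 51282 and 28741 on replicate 2. The other 49 genes summed to 64059 and 65181, and to 74237 and 71478. The ligands of the lineage receptors were close to 0 or below it. Csf1, the ligand of CSF1R, was at -0.18 on replicate 1 and -0.12 on replicate 2, Il34, its second ligand, at -0.35 and -0.22, and Cx3cl1, or fractalkine, at -0.0067 and 0.19. The median of the 3 was -0.15, and -0.0068 with the mean over passing probes.

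Markers of other blood and vessel cells were read beside these genes. Of 10 neutrophil markers 6 were measured, 4 of them higher and 2 lower on both arrays, with a median of 0.43 (0.49 on replicate 1 and 0.24 on replicate 2), and the granule gene Ltf was not well above background in any RNA. S100a8 had 1.82 on replicate 1 and 0.65 on replicate 2, and S100a9 2.02 and 0.23. Among granule genes, Camp had 0.70 and 0.26 on the arrays and Mpo 0.29 and 0.48, while the means of Elane and Prtn3 were -0.04 and -0.12. The summed processed signal of the 6 was 1372 (control) and 2173 (Bmp4cKO) on replicate 1, and 1537 and 1668 on replicate 2. All 8 endothelial markers were measured, 7 of them higher on both arrays, with a median of 0.35, Cldn5 at 0.62 and Tek at 0.51, and none was called. Their summed signal was 41056 and 48309 on replicate 1 and 42973 and 60532 on replicate 2. That of the 32 macrophage and leukocyte genes was 32226 and 35939, and 34150 and 38491. The summed signals of all 3 lists were larger under the Bmp4cKO label on each array, as most members' signals were. So was that of the platelet markers, with 1308 (control) and 1418 (Bmp4cKO) on replicate 1 and 1352 and 1459 on replicate 2. The median ratio of the platelet markers was nevertheless -0.07 on replicate 1, where Ppbp alone had 87 and 171. The sum of the mast cell markers was smaller on both arrays, with 3324 and 2989 on replicate 1 and 3730 and 2848 on replicate 2. Of these, Hdc alone had 723 and 176 on replicate 1, a wider gap than that of the sum, and 855 and 175 on replicate 2. The sums of the erythroid and lymphocyte markers had opposite orders on the arrays. Among the erythroid genes, Hbb-bt had 61357 and 51147 on replicate 1 and 33868 and 77028 on replicate 2, the same orders as their sum. The part of neutrophil, endothelial or platelet RNA in the members' values was not tested.

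Of 7 mast cell markers 6 were measured, with a median of -0.04, against -0.10 on replicate 1, -0.14 on replicate 2 and 0.037 with the mean over passing probes. Hdc, which encodes the histamine-forming enzyme and is used by other cells too, was the only gene called in these lists, at -1.94 ± 0.17 (SD, n = 2 arrays; limma adjusted p = 0.019), a call lost with median centring in place of loess, and Cma1, a mast cell protease gene, was at 0.32. Of the 6 platelet markers measured, Ppbp (0.60) and Gp9 (0.27) were higher on both arrays, Treml1 and Itga2b (both -0.10) lower, and the other 2 of opposite sign. Their median was 0.04, with -0.07 on replicate 1 and 0.15 on replicate 2. The erythroid genes Ahsp and Hbb-bt were at 0.42 and 0.36, the latter with -0.77 and 1.49 on the arrays, and all 8 had a median of 0.16, against 0.065 on replicate 1 alone and 0.052 on replicate 2 alone. Ermap and Hba-x were lower on both arrays. Lymphocyte markers were measured for 6 of 12, with a median of -0.08, against -0.042 on replicate 1 and -0.012 on replicate 2. The T cell genes Cd3e and Lck were well above background in all 4 RNAs, with means of -0.12 and -0.05. The T cell genes Cd3d, Cd3g and Cd8a were not well above background in any RNA, nor were Ms4a1, Il7r and Rag1. Cd79b was at 0.52 and Nkg7 at -0.12.

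**Figure D5:**
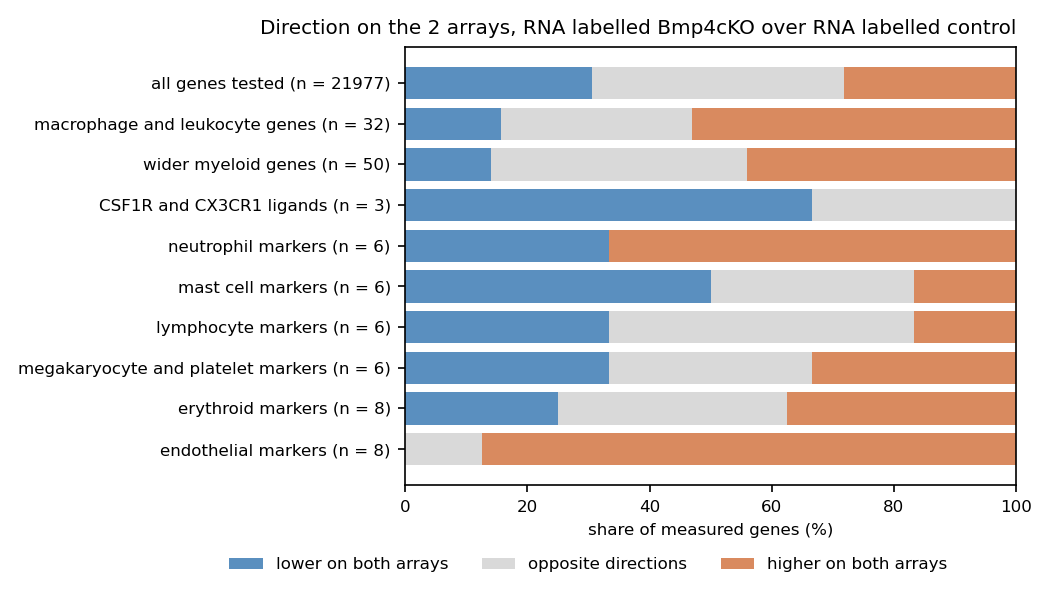
Share of measured genes (x axis, percent) in each list that were lower on both arrays (blue), of opposite sign (grey) or higher on both arrays (orange) in the RNA labelled Bmp4cKO. The macrophage and leukocyte genes have 53.1% higher on both arrays against 28.2% of all genes, the wider myeloid genes 44.0%, and 7 of 8 endothelial markers are higher on both.

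PU.1 binds purine-rich sites in the promoters of many myeloid genes, and its core motif was looked for as GAGGAAGT on either strand. The window ran from 250 bases before to 50 after each start in a RefSeq table of GRCm38.p6, which held 26 of the 34 members. The motif was in 4 of these members (15.4%), Ctss, Cd53, C1qc and Pf4, and in 3.69% of 27025 genes in the table. The stretches before the start of C1qc and Pf4 are shown because the ratios of these genes had opposite signs, with the reverse complement of the motif, as it reads on the gene's strand, in capitals.
C1qc, minus strand at chr4:136893086-136893125: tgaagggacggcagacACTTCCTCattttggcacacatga
Pf4, plus strand at chr5:90772409-90772434: attgcttctgcagagcACTTCCTCat
The match ends 187 bases before the start in C1qc and 2 bases before it in Pf4. A match is a description of the sequence, not a site shown to be bound.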

How the data were processed

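Total RNA of dissected ureters was labelled with 2 dyes. The authors' scans were read out by Agilent Feature Extraction 10.7.3.1, with probes placed on mm9, per the file headers. Spot means and local background medians are raw deposited intensities. Deposited processed signals are background-subtracted intensities after the scanner software's detrending and dye normalization. The deposited log10 ratio sets red against green. The authors' value table gives 1 score per probe, with no scale stated and a direction only in sample titles that read Bmp4cKO vs control. Its sizes match the scanner's as signed folds, within 0.01 (log2) for 99.7% and 99.6% of probes, and both columns have a median of 1. Its sign followed red against green on replicate 1 and the inverse on replicate 2, which is opposite to the dye-label direction used here.

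Mean signals were corrected with normexp (offset 50) and normalized by loess within each array, with control spots at weight 0 and outlier-marked spots (231 and 235) left out. Spots of a probe were averaged and probes named through RefSeq (GRCm38.p6), 31001 of 39429, the rest keeping the array's name. A gene took its brightest passing probe. Ratios, turned by the dye labels, were fitted with limma 3.58.1 (lmFit, eBayes, R 4.3.3) with 1 residual and 4.03 prior degrees of freedom, and p-values adjusted by Benjamini-Hochberg. The array pairs the RNAs within each ratio. Intensities per RNA were scaled between arrays with Aquantile, which leaves ratios as they are. The fit was tested on simulated data. The members and lists were chosen with earlier results of these data known. Named were Bmp4 and Tbx18, every member, and of each other list the called genes or else the 2 with the largest mean change. Added after their values were seen were Ddx3y, Xist, Adgre1, Cx3cl1, Csf3r, Pirb, Elane, Prtn3, Ltf, Camp, Mpo, Treml1, Itga2b, Ermap, Hba-x, Cma1, the T cell genes, Ms4a1, Il7r and Rag1. Alternatives changed the background, normalization, filter, probe rule, prior, channel model and source of values.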

Additional observations from a re-analysis of the deposited data

Results flagged for a closer look

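For 10 genes the ratio had opposite signs on the 2 arrays. The arrays differ in the sex label and in dye orientation, with 1 RNA of each genotype label on each, so sex and dye cannot be told apart, and no difference between the arrays was tested. Replicate 2 also pairs RNAs whose sex-linked probes differ, so its ratios mix sex with the genotype label. The differences are given as the log2 ratio on replicate 2 minus that on replicate 1. The ratio was above 0 on replicate 1 and below 0 on replicate 2 for Ms4a7 (-0.63), Cx3cr1 (-0.53), Trem2 (-0.37), Csf1r (-0.34), Laptm5 (-0.23) and Ctss (-0.20). It was below 0 on replicate 1 and above 0 on replicate 2 for Stab1 (0.49), Hcls1 (0.32), Coro1a (0.22) and Cd68 (0.22). The median of the lineage receptors and regulator also had opposite signs, with a difference of -0.34, as did that of the megakaryocyte and platelet markers, with 0.22. Neither of these differences was tested.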

How the results depend on the processing

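With 2 arrays and 1 residual degree of freedom, counts of calls moved with the processing. Against 195 genes called higher and 225 lower, a normexp offset of 16 called 305 and 348, processed signals with median centring 611 and 670, an intensity trend 611 and 671, and median centring in place of loess 0 and 0. Among the macrophage and leukocyte genes, processed signals called 2 higher (Pf4 and Fcgr1) and the trend 1 (Pf4). The offset of 16, processed signals, no filter on dim probes, the robust prior and the trend each called 1 lower, Ptprc. In the other lists processed signals and the trend each called 4 genes higher, against 0, and median centring called 0 lower, against 1. The members' median ranged from 0.14 to 0.23 when each array was left out, which leaves no test. The array pairs the RNAs, so the reported ratios carry the pairing. The fit of separate channels with no replicate block called 155 genes higher and 171 lower and 0 members in either direction. The same model with the replicate block and a dye term could not be fitted and was not run. The mean over passing probes turned Csf1r to -0.23 and Cx3cr1 to -0.027, by construction from the other probes.

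The authors' deposited table, kept in its own direction, turns the sign of every named gene's mean given here. With it 338 genes were called higher and 298 lower, 1 member was called higher (Ptprc), 1 gene of the other lists was higher and 0 were lower, the members' median was -0.17 and 1 group by role had a median above 0. In the authors' deposited table the log2 values of the members were Ptprc 0.96, C1qa 0.24, C1qb 0.14, Laptm5 0.11, Folr2 0.13, Ms4a7 0.096, C1qc 0.075, Trem2 0.051, Cd68 -0.052, Csf1r -0.023, Ctss -0.043, Coro1a -0.094, Cx3cr1 -0.076, Hcls1 -0.17, Spi1 -0.17, Aif1 -0.10, Fcer1g -0.17, Cd53 -0.14, Stab1 -0.20, Rac2 -0.21, Tyrobp -0.22, Fcgr3 -0.22, Cd48 -0.33, Lyz2 -0.30, Fcgr1 -0.64, Clec4n -0.43, Cd52 -0.42, Lcp1 -0.39, Mrc1 -0.40, Lyz1 -0.53, Cd14 -0.64 and Pf4 -0.71. In the authors' deposited table those of the other named genes were Bmp4 -3.41, Tbx18 -0.99, Il34 0.43, Csf1 0.15, Tek -0.52, Cldn5 -0.66, Ahsp -0.40, Hbb-bt -0.46, Cd79b -0.58, Nkg7 0.16, Hdc 2.16, Cma1 -0.45, Ppbp -0.78, Gp9 -0.35, S100a8 -1.72, S100a9 -1.28, Cebpa -0.75 and Csf2rb -0.54.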
